A study of Mus musculus with 12 samples.

Results

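Ephrins with their Eph receptors, and semaphorins with their plexin and neuropilin receptors, are the cell-surface and secreted cues described here. They were chosen by gene symbol: every protein-coding mouse gene named as an ephrin, an Eph receptor, a class 3 to 7 semaphorin, a plexin or a neuropilin was taken, which gave 53 of 21552 protein-coding genes. The 53 comprise 5 ephrin-A and 3 ephrin-B ligands, 9 EphA and 5 EphB receptors, 20 semaphorins, 9 plexins and 2 neuropilins. RNA sequencing was done in 12 libraries, 3 in each of 4 groups. All cells were conditionally immortalized proximal tubule (PT) cells of mouse kidney, carrying a temperature-sensitive T antigen. They were grown at 33 °C with interferon gamma and moved to 37 °C 5 days before the experiment. The floxed group (TβRII flox/flox) came from male mice with both Tgfbr2 alleles floxed, and the deleted group (TβRII-/-) was made from such cells in culture with adenoviral Cre. Each genotype is therefore 1 cell line, and the deletion cannot be told apart from other differences between the lines. H2O2 was given for 24 h in serum-free medium, whereas untreated cells stayed in their usual medium. The study's methods also name 24 h of serum starvation before stimulation. The oxidant and the absence of serum therefore cannot be told apart. The H2O2 concentration was 200, in mM by the labels and in μM by the methods section, a difference that was not resolved here.

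Ephrins are membrane-bound ligands of the Eph receptor tyrosine kinases. The A ligands hold to the membrane by a lipid anchor and mostly bind EphA receptors, and the B ligands cross the membrane and mostly bind EphB receptors. Contact between cells triggers signalling in both of them, which commonly makes cells repel each other or sets tissue borders. Semaphorins act through plexins, whose intracellular part acts on small GTPases and so on the cytoskeleton and on integrin adhesion. Most class 3 semaphorins are secreted and need a neuropilin as the ligand-binding partner of an A-type plexin, whereas Sema3e binds plexin D1 directly. In the kidney these families are known from nephron and vessel development and from work on injured tubules.

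Values are normalized counts, that is, reads counted on the most abundant transcript of a gene and scaled to a library of 17351843 reads. Gene counts summed to between 15870152 and 20857598 per library. Of the 53 members, 42 passed the filter on low counts and were tested among 12970 genes. The 11 others (Epha3, Epha5, Epha6, Epha8, Epha10, Ephb1, Sema4f, Sema6b, Plxna4, Plxnb3 and Plxnc1) reached at most 17 reads in any library, and Epha5 and Ephb1 had none in all 12. A gene was called when its adjusted p in edgeR's quasi-likelihood test was under 0.05 and its fold change was at least 1.5. The study's methods describe in vitro experiments as done in at least 3 biological replicates or independent experiments, unless stated otherwise. For these libraries in particular, separate cultures are not named. The p-values therefore measure the spread between these libraries, which may be partly technical. Tgfbr2 itself was counted at 8791, 7521 and 7032 reads in untreated TβRII flox/flox libraries and at 6485, 6895 and 6642 in untreated TβRII-/- libraries. With H2O2 its counts were 13085, 13474 and 11960 against 7823, 9299 and 7156. Tgfbr2 transcripts were thus still counted in the deleted line, and the deleted exon was not resolved in these counts. The study's methods report that the deletion was checked by immunoblotting and RNA sequencing. Of the PT markers, Slc34a1, Slc22a6, Slc22a8 and Hnf4a were at or near 0 in all 12 libraries, and of the 8 that were tested 6 were lower and none higher in untreated TβRII-/- PT cells (6 lower also with H2O2). Lrp2 had 15563 to 20340 normalized counts in untreated TβRII flox/flox and 10553 to 11415 in untreated TβRII-/- libraries, and the marker list summed to 27443 to 33216 and 21060 to 22517. All 5 epithelial markers were higher in TβRII-/- PT cells, Cdh1 with 1 to 3 normalized counts in untreated TβRII flox/flox libraries and 1045 to 1171 in untreated TβRII-/- libraries. The 5 summed to 2664 to 3040 normalized counts in untreated TβRII flox/flox and 10771 to 11077 in untreated TβRII-/- libraries, and the part of either marker shift in the results below was not tested. In bulk samples fewer cells of a type and less RNA per cell cannot be told apart. Of 7 endothelial markers, Pecam1 and Cdh5 stayed under 5 normalized counts in every library, but Kdr had 124 to 133 in untreated TβRII flox/flox and 459 to 584 in untreated TβRII-/- libraries, and fell with H2O2 to 20.7 to 22.3 and 38.5 to 59.7. The part of this change in the members' results was not tested. The first principal component over the tested genes carried 81.5% of the variance.

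The first question was whether the 2 PT cell lines differ in these cues when untreated. In all, 24 of 42 tested members were called (57.1%), 8 higher and 16 lower in TβRII-/- PT cells, while 28% of all genes tested were called in this comparison. By direction, 16.3% of all genes were called higher and 11.8% lower. The median log2 fold change of the members was -0.417 and that of all genes 0.008. The 2 groups did not overlap in 32 of 42 members and in 65.3% of all genes. Semaphorins and Eph receptors held most of the calls, with 13 of 18 tested semaphorins and 6 of 8 tested Eph receptors, and 2 of 8 ephrins, 2 of 6 plexins and 1 of 2 neuropilins were called. Sema3d, Sema6d and Ephb3 count among these calls, though each passed the low-count filter only through the line where it is high.

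**Figure D1:**
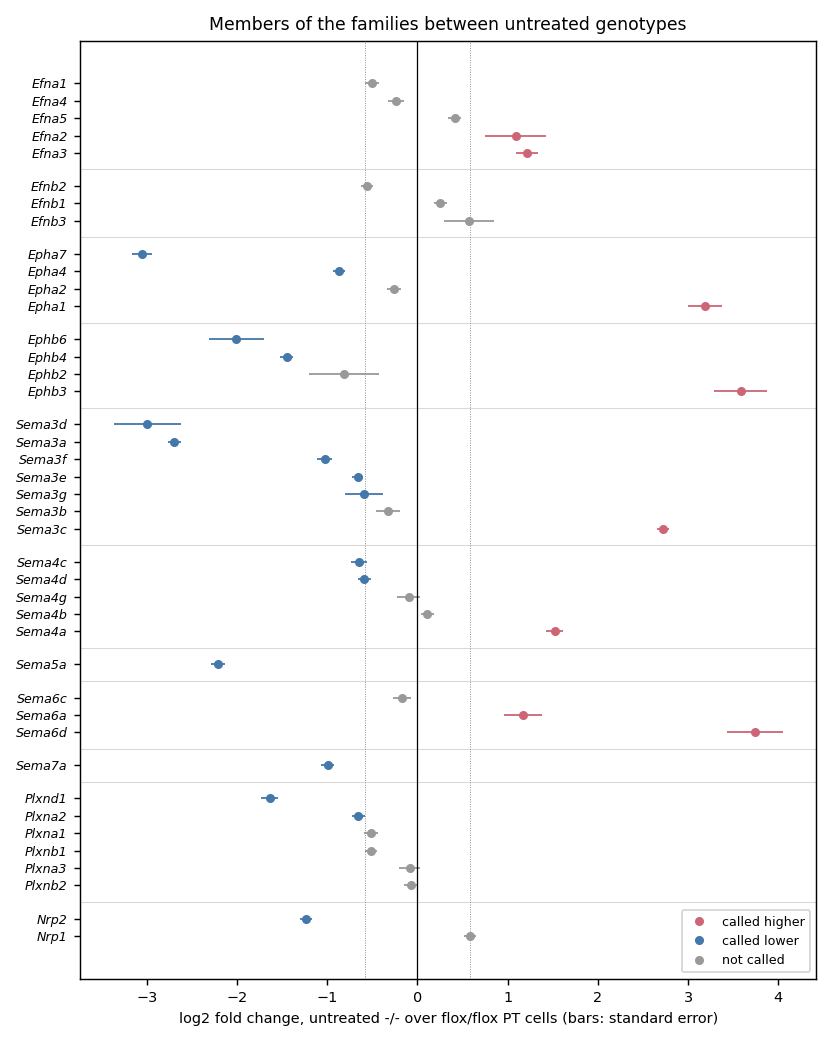
Log2 fold change of each tested member between untreated TβRII-/- and TβRII flox/flox PT cells, by family, with standard errors from the fit over 12 libraries; dotted lines mark a 1.5-fold change. Sema6d, Ephb3, Epha1 and Sema3c lay farthest to the right (3.74, 3.58, 3.19 and 2.72), and Epha7, Sema3d and Sema3a farthest to the left (-3.06, -3.00 and -2.70). Sema5b, at 0 in all untreated libraries, is not drawn.

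Among class 3 semaphorins, secreted ligands, 6 of 7 were called, 5 lower and 1 higher. Sema3a, best known for collapsing growth cones through neuropilin 1, had 12467, 11860 and 10497 normalized counts in untreated TβRII flox/flox libraries and 1824, 1881 and 1672 in TβRII-/- libraries. Every TβRII-/- library lay far below every TβRII flox/flox library, a 6.48-fold difference (log2 -2.70, SE 0.07, adjusted p = 2.1e-25). Sema3c, a ligand that binds both neuropilins, went the other way, with 1212, 1105 and 1028 against 7340, 7441 and 7259. It was 6.59-fold higher in TβRII-/- PT cells (log2 2.72, SE 0.07, adjusted p = 1.94e-26) with no overlap. Per kilobase of transcript, the level of Sema3a was 8.13 to 8.54 times that of Sema3c in the 3 untreated TβRII flox/flox libraries and 0.183 to 0.201 times in the 3 TβRII-/- libraries. Sema3a was thus the most abundant semaphorin per kilobase in TβRII flox/flox PT cells, with 1557 ± 135 (SD, n = 3), and Sema3c in TβRII-/- PT cells, with 1238 ± 15.4. Sema3d, another secreted ligand, was low in both lines, with 36.8, 37.8 and 46.2 against 7.32, 0.97 and 6.70. These groups did not overlap either (log2 -3.00, SE 0.37). Sema3d passed the low-count filter only through TβRII flox/flox libraries, so no p-value is given for it. Sema3f, a ligand of neuropilin 2, had 2986, 2859 and 2251 normalized counts against 1463, 1299 and 1210 (log2 -1.03, SE 0.08, adjusted p = 1.13e-12). Sema3e, the plexin D1 ligand, had 10054, 9189 and 8299 against 5938, 5859 and 5583 (log2 -0.66, SE 0.07, adjusted p = 1.24e-10). Neither ligand overlapped between the groups. Sema3g was called lower at -0.60 (SE 0.21, adjusted p = 0.0138), but its groups overlapped, with 72.6, 86.8 and 60.2 against 29.3, 50.3 and 64.1. Without TβRII-/- untreated replicate 1, or without TβRII flox/flox untreated replicate 2, it was no longer called. Sema3b, with a log2 difference of -0.33 (SE 0.13, adjusted p = 0.029), did not reach the fold limit.

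Sema3d, Sema3a, Sema3e and Sema3c lie in this order on chromosome 5 (GRCm38.p6), within 5347 kb that hold 12 other protein-coding genes. Sema3d spans 12383161 to 12588953, Sema3a 13124822 to 13603485, Sema3e 14025276 to 14256689 and Sema3c 17574816 to 17730268. These 4 are shown because, of these neighbours in the genome, 3 were lower and 1 higher in the deleted line. Taking the 24 tested genes nearest to each of them, the median log2 difference, less that of all genes, was 0.015 around Sema3a, 0.043 around Sema3c, -0.01 around Sema3d and 0.043 around Sema3e. The 250 bases before an annotated start site, on the plus strand, are given from RefSeq. Capitals mark the Smad-binding letters CAGAC and the E-box CACCTG on either strand (CAGAC reads GTCTG and CACCTG reads CAGGTG on the other strand), and no match overlapped another.
Sema3d, chr5:12382916-12383165: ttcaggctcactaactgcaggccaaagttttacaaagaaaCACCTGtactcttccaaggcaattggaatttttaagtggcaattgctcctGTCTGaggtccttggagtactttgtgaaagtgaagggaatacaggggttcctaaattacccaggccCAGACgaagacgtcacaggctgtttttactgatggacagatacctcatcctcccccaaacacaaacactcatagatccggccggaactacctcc
Sema3a, chr5:13396534-13396783: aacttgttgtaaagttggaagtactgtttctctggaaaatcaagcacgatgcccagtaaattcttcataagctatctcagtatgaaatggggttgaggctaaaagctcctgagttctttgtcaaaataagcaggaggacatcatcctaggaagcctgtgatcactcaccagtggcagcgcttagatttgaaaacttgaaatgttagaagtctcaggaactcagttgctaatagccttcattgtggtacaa
Sema3e, chr5:14025026-14025275: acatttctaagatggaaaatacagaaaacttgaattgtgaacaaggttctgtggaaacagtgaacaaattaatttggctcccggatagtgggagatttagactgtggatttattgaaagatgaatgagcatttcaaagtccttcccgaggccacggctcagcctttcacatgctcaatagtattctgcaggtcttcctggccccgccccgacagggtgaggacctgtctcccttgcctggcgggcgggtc
Sema3c, chr5:17574566-17574815: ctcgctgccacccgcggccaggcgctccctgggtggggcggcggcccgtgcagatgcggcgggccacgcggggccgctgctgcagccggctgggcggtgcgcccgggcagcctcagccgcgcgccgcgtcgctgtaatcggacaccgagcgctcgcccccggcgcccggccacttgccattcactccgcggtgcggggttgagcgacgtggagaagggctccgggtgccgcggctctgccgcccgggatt
The Sema3a window lies inside the annotated span of the gene, which also has starts farther upstream. Sema3d held CAGAC 2 times and CACCTG 1 time, and the windows of Sema3a, Sema3e and Sema3c held neither. The share of G and C was 46.8% before Sema3d, 40.8% before Sema3a, 48.0% before Sema3e and 78.4% before Sema3c. Of the 47 members with a promoter in the table, 44.7% held CAGAC and 12.8% CACCTG, against 42.2% and 17.2% of 32851 windows of the same length. The AP-1 letters TGANTCA were in 4.26% of member windows against 6.75%, and the TEAD letters GGAATG in 12.8% against 12.6%. None of the 4 windows held either of these.

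**Figure D2:**
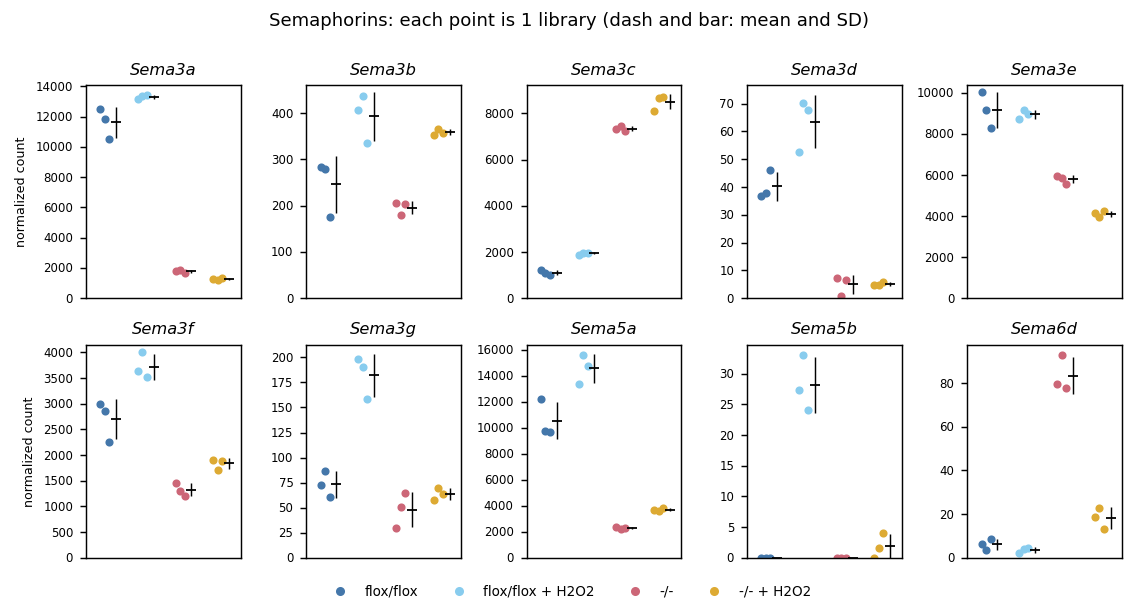
Normalized counts of the 7 class 3 semaphorins, Sema5a, Sema5b and Sema6d, 1 panel per gene with its own axis starting at 0; points are single libraries, dashes and bars the mean and SD of 3. Sema3a sits between 10497 and 13429 in the TβRII flox/flox libraries and between 1179 and 1881 in the TβRII-/- libraries, and Sema3c shows the opposite order.

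Of the membrane-bound semaphorins, Sema5a, which carries thrombospondin repeats, had 12212, 9766 and 9680 normalized counts in untreated TβRII flox/flox libraries and 2335, 2232 and 2296 in TβRII-/- libraries (log2 -2.21, SE 0.08, adjusted p = 5.23e-22). Sema6d, a class 6 ligand of plexin A1, was near 0 in TβRII flox/flox PT cells, with 6.31, 3.34 and 8.60. It reached 79.5, 92.9 and 77.5 in TβRII-/- PT cells (log2 3.74, SE 0.31). Sema6d passed the low-count filter only through TβRII-/- libraries, so no p-value is given for this comparison. Sema5a and Sema6d were well separated, in opposite directions. Sema6a, a ligand of plexins A2 and A4, rested on fewer reads, with 44.2, 30.0 and 26.9 against 81.6, 79.4 and 68.0 (log2 1.17, SE 0.21, adjusted p = 1.67e-05). Sema6c, the most abundant class 6 member by count, had 301, 333 and 254 against 292, 242 and 256, and these groups overlapped (log2 -0.17, SE 0.10, adjusted p = 0.146). Its counted transcript is annotated as a retained intron and held 11.3% of the reads summed over its transcripts. Sema4a, a class 4 ligand known from T cell and macrophage signalling, was the class 4 member called higher. Its values were 156, 145 and 142 against 456, 428 and 390 (log2 1.52, SE 0.10, adjusted p = 2.4e-15). The counted Sema4a transcript held 11.4% of the reads summed over its transcripts. Sema4c, a ligand of plexin B2, had 982, 793 and 727 against 516, 559 and 524 (log2 -0.65, SE 0.09, adjusted p = 5.94e-08). Sema4d, the plexin B1 ligand, had 2722, 2473 and 2144 against 1714, 1576 and 1599 (log2 -0.59, SE 0.07, adjusted p = 6.09e-09). Neither class 4 ligand overlapped between the groups, but each lay close to the fold limit. Without TβRII flox/flox untreated replicate 1 neither was called. Sema4d held its call in 12 of 19 settings and was also lost without TβRII-/- untreated replicate 2 or 3, with the replicate block, with only the groups compared, with summed transcripts and with at least 10 counts in every library. Sema7a, which is lipid-anchored and binds plexin C1 and integrins, had 1096, 1066 and 919 against 508, 514 and 524. The 3 TβRII-/- libraries agreed closely and lay below the others (log2 -0.995, SE 0.07, adjusted p = 1.29e-13), while its receptor Plxnc1 had at most 3 reads in any library. Sema4b and Sema4g were not called (log2 0.11 and -0.10).

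Of the receptors of these ligands, 2 of 6 tested plexins were called, both lower in TβRII-/- PT cells. Plxnb2, a receptor of class 4 semaphorins, was the most abundant member per kilobase in both untreated lines, with 3535 ± 458 (SD, n = 3) and 3366 ± 269. Its 3 untreated TβRII flox/flox libraries had 26669, 23721 and 20546 normalized counts and the TβRII-/- libraries 24550, 21143 and 21836. These overlapped (log2 -0.07, SE 0.08, adjusted p = 0.446). Plxna1, a co-receptor of neuropilins, came next among plexins and had a log2 difference of -0.51 (SE 0.08, adjusted p = 1.22e-06), under the fold limit. Plxnb1 stood at -0.51 and Plxna3 at -0.09, and neither was called. Plxnd1, the receptor of Sema3e, was the plexin with the largest difference, with 542, 521 and 470 against 157, 163 and 172. It was lower in all 3 TβRII-/- libraries (log2 -1.64, SE 0.10, adjusted p = 3.26e-16), as was its ligand. Plxna2 had 1838, 1493 and 1520 against 1103, 944 and 1033 (log2 -0.66, SE 0.07, adjusted p = 2.63e-09), and without TβRII flox/flox untreated replicate 1 its fold fell under the limit.

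On the counted transcripts, the order of the 2 neuropilins by level differed between the untreated lines, but not between the treated ones. Nrp2 had 4278, 3875 and 3526 normalized counts in untreated TβRII flox/flox libraries and 1639, 1570 and 1734 in TβRII-/- libraries (log2 -1.24, SE 0.07, adjusted p = 4.9e-17). Nrp1 had 2393, 2178 and 2021 against 3486, 3231 and 3171, with no overlap. Its log2 difference of 0.585 (SE 0.06, adjusted p = 1.51e-09) lay just under the 1.5-fold limit, and it was called in 8 of 19 alternative settings. Per kilobase, Nrp1 stood at 0.731 to 0.749 times Nrp2 in untreated TβRII flox/flox libraries and at 2.39 to 2.78 times in untreated TβRII-/- libraries. With H2O2 it stood above Nrp2 in both lines, at 1.1 to 1.12 times in TβRII flox/flox and 3 to 3.2 times in TβRII-/- libraries. The counted transcript held 61.9% of the reads summed over transcripts for Nrp1 and 18.1% for Nrp2. The order over all transcripts was not compared.

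**Figure D3:**
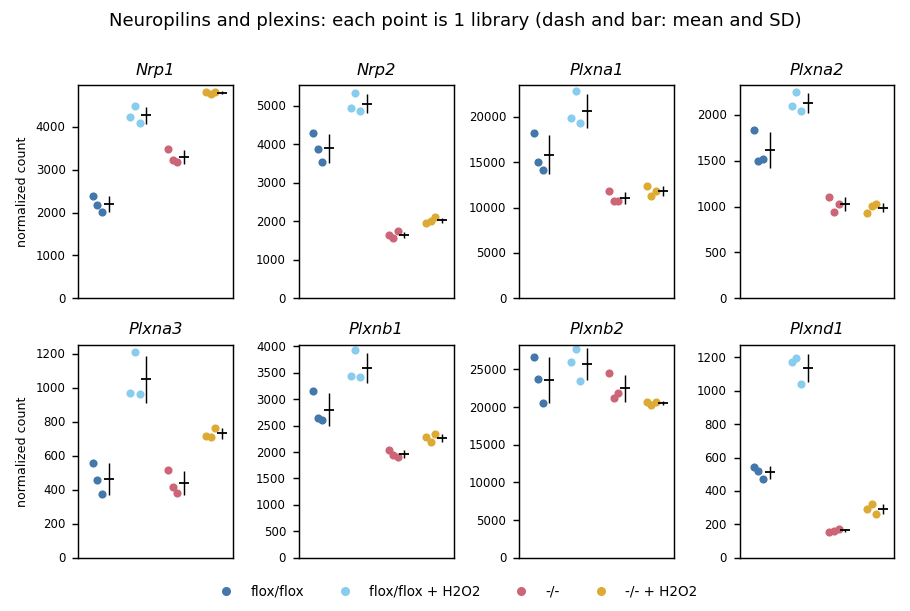
Normalized counts of both neuropilins and 6 plexins, 1 panel per gene with its own axis starting at 0; points are single libraries, dashes and bars the mean and SD of 3. Within each treatment Nrp1 is higher and Nrp2 lower in the TβRII-/- libraries, but Nrp1 was called in neither genotype comparison. With H2O2, Nrp1 lies at 4086 to 4480 in TβRII flox/flox and 4772 to 4820 in TβRII-/- libraries. Plxnd1 is higher with H2O2 in both genotypes, and Plxnb2 lies between 20241 and 27730 in every library.

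Among Eph receptors, individual genes differed in opposite directions. Epha7 had 695, 626 and 533 normalized counts in untreated TβRII flox/flox libraries and 83.7, 62.0 and 77.5 in TβRII-/- libraries. It was 8.32-fold lower (log2 -3.06, SE 0.11, adjusted p = 8.97e-22). Epha1, a receptor known from epithelia, had 22.1, 13.4 and 22.6 against 181, 157 and 195 (log2 3.19, SE 0.19, adjusted p = 5.63e-16). Ephb3, a receptor known from intestinal crypt positioning, had 5.26, 6.68 and 5.38 against 83.7, 66.8 and 61.3 (log2 3.58, SE 0.30). Ephb3 passed the low-count filter only through TβRII-/- libraries, so no p-value is given for it. Epha1 and Ephb3 were thus near the low end of detection in TβRII flox/flox PT cells and plainly counted in TβRII-/- PT cells. Ephb4, known as the venous receptor of ephrin-B2, had 7433, 7373 and 5771 against 2604, 2459 and 2466 (log2 -1.45, SE 0.07, adjusted p = 1.24e-17). Ephb6, whose kinase domain is catalytically inactive, had 43.1, 42.3 and 31.2 against 10.5, 10.7 and 7.66 (log2 -2.01, SE 0.31, adjusted p = 9.14e-07). Epha4, which binds both ligand classes, had 3654, 3156 and 2925 against 1858, 1755 and 1732 (log2 -0.86, SE 0.07, adjusted p = 6.11e-13). These 3 receptors did not overlap between the groups. On the counted transcripts Epha2, an epithelial receptor, was the most abundant Eph receptor per kilobase in both untreated lines (1876 ± 274 and 1567 ± 106, SD, n = 3). That transcript held 73.1% of the reads summed over transcripts, and that of Ephb4 22.1%, so the rank may differ over all transcripts. Epha2 had 8487, 7244 and 6349 against 6629, 5933 and 5884. Its groups overlapped, and its log2 difference of -0.26 (SE 0.08, adjusted p = 0.0036) was under the fold limit. Ephb2 was not called (log2 -0.81, SE 0.38, adjusted p = 0.063).

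Of the 8 ligands of these receptors 2 were called, both higher, but without TβRII flox/flox untreated replicate 3 Efna2 was lost and Efna1 and Efnb2 were called lower. Efna3 had 112, 135 and 106 normalized counts in untreated TβRII flox/flox libraries and 266, 290 and 262 in TβRII-/- libraries (log2 1.22, SE 0.12, adjusted p = 1.25e-10). Efna2 was counted at low depth, with 13.7, 16.7 and 5.38 against 30.3, 24.2 and 22.0 (log2 1.09, SE 0.34, adjusted p = 0.00585). The groups of both lipid-anchored ligands were separate, and without that replicate 3 the adjusted p of Efna2 was 0.0665. Efnb2, the transmembrane partner of Ephb4, was the most abundant ephrin by count, with 4976, 4608 and 4138 against 3293, 3150 and 2838. It lay lower in all 3 TβRII-/- libraries (log2 -0.56, SE 0.07, adjusted p = 6.21e-09), just under the fold limit. Efna5, the ephrin-A ligand with the most reads, had 1119, 1045 and 912 against 1372, 1454 and 1266 (log2 0.41, SE 0.07, adjusted p = 5.18e-06). Efna1, Efna4, Efnb1 and Efnb3 ranged from -0.51 to 0.57 and were not called.

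**Figure D4:**
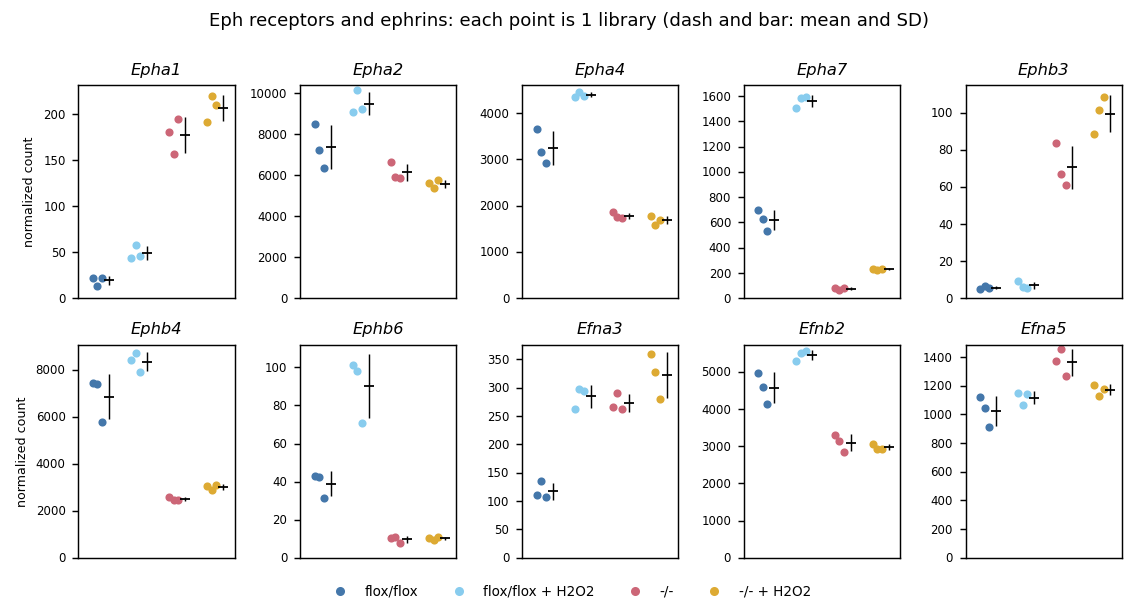
Normalized counts of 7 Eph receptors and 3 ephrins, 1 panel per gene with its own axis starting at 0; points are single libraries, dashes and bars the mean and SD of 3. Epha1 and Ephb3 are higher and Epha7, Ephb4 and Ephb6 lower in the TβRII-/- libraries, while Efna3 reaches 262 to 299 in H2O2-treated TβRII flox/flox libraries and 262 to 290 in untreated TβRII-/- libraries.

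With H2O2 in both lines, 28 of 42 members were called between the genotypes (66.7%), 6 higher and 22 lower in TβRII-/- PT cells, while 30.7% of all genes tested were called. The median log2 difference of the members was -0.667 and that of all genes 0.018. The groups did not overlap in 34 of 42 members and in 71% of all genes. All 8 tested Eph receptors were called, 2 higher and 6 lower, including Epha2 (log2 -0.77, SE 0.08, adjusted p = 1.73e-10) and Ephb2 (log2 -1.57, SE 0.40). Ephb2 passed the low-count filter only through TβRII flox/flox libraries, so no p-value is given for its call. Sema3a stood at -3.39 (SE 0.07, adjusted p = 1.02e-27) and Sema3c at 2.13 (SE 0.06, adjusted p = 4.78e-24). Efnb2 was now called lower (log2 -0.87, SE 0.07, adjusted p = 2.49e-13), as were Plxna1 (-0.80) and Plxnb1 (-0.67). Efna3 and Sema6a were no longer called (log2 0.18 and 0.21, adjusted p = 0.114 and 0.274).

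The next question was how H2O2 changed these cues within a genotype. In TβRII flox/flox PT cells 15 of 42 members were called (35.7%), and all 15 rose, while 8.24% of all genes tested were called, 5.68% of them rising and 2.56% falling. The median log2 change of the members was 0.432 (0.426 without Sema5b), and that of all genes 0.007. Leaving out the fold limit, 32 of 42 had an adjusted p under 0.05, and all 32 were higher with H2O2. The share of all genes under that looser rule was not taken, so this count has no background beside it. Treated and untreated libraries did not overlap in 33 of 42 members and in 47.4% of all genes. The untreated TβRII flox/flox libraries were not alike for these genes: in 27 of 42 members (64.3%) replicate 1 was above replicate 2 and replicate 2 above replicate 3, an order held by 20.3% of all genes tested. With 1 library left out 43 members could be tested; H2O2 then called 16 without replicate 1 of that group and 13 without its replicate 3, all of them rising. Between untreated genotypes, 23 of 43 were called without that replicate 1 (10 higher, 13 lower) and 27 of 43 without that replicate 3 (8 higher, 19 lower). Shares of all genes were not taken for the fits with 1 library left out.

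Sema5b, a transmembrane semaphorin, was counted only after treatment. It had no read in the 6 untreated libraries of either genotype and 27.4, 33.1 and 24.1 normalized counts in H2O2-treated TβRII flox/flox libraries. Against a floor of 3 counts per library it was at least 9.39-fold higher. Sema5b passed the low-count filter only through these treated TβRII flox/flox libraries, so no p-value is given for it. It is among the members called here and among those called lower between treated genotypes. With H2O2 the TβRII-/- libraries held 0, 1.57 and 3.98, below all 3 treated TβRII flox/flox libraries. Sema6a reached 96.4, 109 and 67.6 in treated TβRII flox/flox libraries (log2 change 1.44, SE 0.21, adjusted p = 1.81e-06), all above the untreated ones. Epha1 reached 43.6, 57.8 and 45.8 (log2 change 1.33, SE 0.24, adjusted p = 3.69e-05) and Epha7 reached 1505, 1584 and 1588 (log2 change 1.33, SE 0.08, adjusted p = 3.84e-15). Neither receptor overlapped its untreated values. Receptors of class 3 semaphorins were among the genes that rose. Nrp1 reached 4231, 4480 and 4086 (log2 change 0.96, SE 0.06, adjusted p = 1.28e-13), Plxna3 rose by 1.18 (SE 0.11, adjusted p = 1.52e-10) and Plxnd1 by 1.15 (SE 0.08, adjusted p = 1.49e-13). Of the ligands, Sema3g rose by 1.32, Efna3 by 1.28, Sema3c by 0.80, Sema4g by 0.72, Sema3b by 0.68, Sema3d by 0.65 and Sema4a by 0.60, and the receptor Ephb6 by 1.22. Sema3b and Sema4a were not called without TβRII flox/flox untreated replicate 3, Sema4a also not without treated replicate 2, and Sema3d, with 52.8, 70.2 and 67.6 in treated libraries, was not called without untreated replicate 1 or 2 or without treated replicate 2 or 3. Plxnb2, Sema3e, Sema4b and Sema7a had log2 changes from -0.04 to 0.14 and adjusted p above 0.05.

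In TβRII-/- PT cells 9 of 42 members were called (21.4%), 8 rising and 1 falling, while 8.33% of all genes tested were called, 4.56% rising and 3.76% falling. The median log2 change of the members was 0.216 (0.21 without Sema5b) and that of all genes 0.018, and the groups did not overlap in 28 of 42 members and in 52.1% of all genes. Epha7 rose most, from 83.7, 62.0 and 77.5 to 234, 220 and 235 (log2 change 1.63, SE 0.12, adjusted p = 3.76e-12). Sema4g, a class 4 semaphorin, went from 114, 118 and 123 to 233, 242 and 244 (log2 change 1.02, SE 0.11, adjusted p = 1.54e-08). Efna2 went from 30.3, 24.2 and 22.0 to 44.3, 55.0 and 52.7 (log2 change 0.995, SE 0.25, adjusted p = 0.00204). Each of the 3 lay higher in all treated libraries than in any untreated one. Sema3b rose by 0.87, Plxnd1 by 0.83, Plxna3 by 0.74, Sema5a by 0.69 and Sema4a by 0.64, the last not called without TβRII-/- untreated replicate 3. Sema6d, which was higher in TβRII-/- PT cells, was the member that fell, from 79.5, 92.9 and 77.5 to 18.5, 22.8 and 12.9 (log2 change -2.18, SE 0.24, adjusted p = 1.16e-08). Its treated values stayed above those of treated TβRII flox/flox PT cells, which were 2.03, 4.13 and 4.58. Epha7, Sema3b, Sema4a, Sema4g, Plxna3 and Plxnd1 were called as rising in both genotypes.

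The third question was whether the response to H2O2 differed between the genotypes, tested as an interaction with an adjusted p under 0.05 and no fold limit. It did in 16 of 42 members (38.1%), while 10.2% of all genes tested passed, 3.9% with a more positive and 6.28% with a more negative response in TβRII-/- PT cells. In all 16 the response was more negative in TβRII-/- PT cells. They comprised 4 of 8 ephrins, 3 of 8 Eph receptors, 7 of 18 semaphorins, 1 of 6 plexins and 1 of 2 neuropilins. These family counts turned on single libraries: without TβRII flox/flox untreated replicate 1 all 6 plexins were called, and without replicate 1 or replicate 3 of treated TβRII flox/flox libraries or replicate 3 of untreated TβRII-/- libraries 2 or 3 were. Without TβRII-/- H2O2 replicate 2 the ephrins fell to 1, without TβRII-/- untreated replicate 1 or 2 to 2, and without TβRII flox/flox untreated replicate 3 the semaphorins fell to 4. The median difference over the tested members was -0.336 on the log2 scale (-0.328 without Sema5b), and that of all genes 0.014. Each response is measured against the untreated libraries of its own genotype, which also enter the comparison of untreated genotypes.

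**Figure D5:**
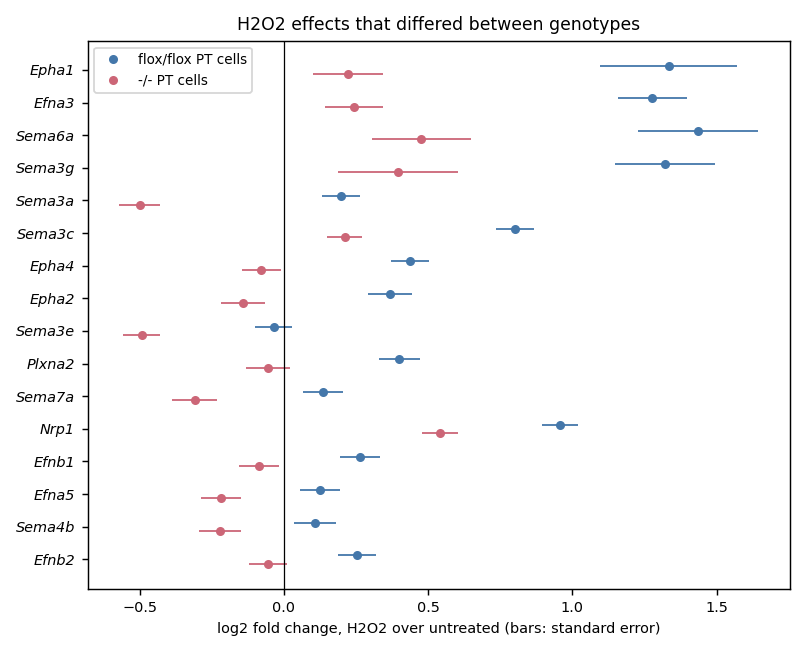
Log2 fold change with H2O2 in TβRII flox/flox (blue) and TβRII-/- (red) PT cells for the 16 members whose response differed between genotypes, with standard errors from the fit over 12 libraries, ordered by the difference. Each red point lies to the left of its blue point, from a difference of -1.11 for Epha1 to -0.31 for Efnb2.

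Of the 16, 6 rose with H2O2 in TβRII flox/flox PT cells and were not called in TβRII-/- PT cells. Epha1, at 181, 157 and 195 before treatment and 192, 219 and 210 after it in TβRII-/- PT cells, had log2 changes of 1.33 and 0.22 in the floxed and the deleted line (difference -1.11, SE 0.27, adjusted p = 0.00671). Efna3 went from 112, 135 and 106 to 262, 299 and 295 in the floxed line and from 266, 290 and 262 to 360.0, 327 and 279 in the deleted line. Its log2 changes were 1.28 and 0.24 (difference -1.04, SE 0.16, adjusted p = 3.1e-05). Treated TβRII flox/flox libraries thus reached the range of untreated TβRII-/- libraries for this ligand. Sema6a reached 116, 101 and 101 in TβRII-/- PT cells, a log2 change of 0.48 against 1.44 (difference -0.96, SE 0.27, adjusted p = 0.0214). Treated libraries held 199, 190 and 158 for Sema3g in the floxed line and 57.2, 69.2 and 63.6 in the deleted line, where they overlapped the untreated values (difference -0.93, SE 0.27, adjusted p = 0.0269). Sema3c, already high in TβRII-/- PT cells, went to 8123, 8678 and 8688 there and from 1212, 1105 and 1028 to 1887, 1972 and 1972 in TβRII flox/flox PT cells. Both groups of treated libraries lay above their untreated ones, with log2 changes of 0.21 and 0.80 (difference -0.59, SE 0.09, adjusted p = 2.66e-05). Nrp1 went to 4803, 4772 and 4820 in TβRII-/- PT cells, a log2 change of 0.54 against 0.96 (difference -0.41, SE 0.09, adjusted p = 0.00234).

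The other 10 were not called within either genotype. Sema3a had 13182, 13328 and 13429 normalized counts in treated TβRII flox/flox libraries and 1289, 1179 and 1341 in treated TβRII-/- libraries. It was higher with H2O2 in the former (log2 0.20, adjusted p = 0.0158) and lower in the latter (log2 -0.50, adjusted p = 1.38e-06), both under the fold limit, and the difference was -0.70 (SE 0.10, adjusted p = 9.04e-06). Sema3e had 8720, 9183 and 8964 in treated TβRII flox/flox libraries, within the untreated range. In TβRII-/- libraries it had 4142, 3967 and 4244, below every untreated one (difference -0.46, SE 0.09, adjusted p = 0.00117). Sema7a had 1193, 1098 and 1091 against 400, 439 and 407 (difference -0.44, SE 0.10, adjusted p = 0.00487). In TβRII-/- PT cells all 3 treated Sema7a values lay under the untreated ones. Epha2 had 9097, 10141 and 9248 against 5606, 5366 and 5754 (difference -0.51, SE 0.11, adjusted p = 0.00205). Epha4 had 4349, 4455 and 4380 against 1775, 1592 and 1695 (difference -0.52, SE 0.09, adjusted p = 0.000407). Plxna2 had 2101, 2255 and 2043 against 930, 1008 and 1026 (difference -0.45, SE 0.10, adjusted p = 0.00396). These 2 receptor tyrosine kinases and this plexin lay higher with H2O2 in every TβRII flox/flox library, and in TβRII-/- PT cells Epha4 and Plxna2 overlapped the untreated values and Epha2 lay just below them. Efnb2 had 5301, 5513 and 5555 against 3067, 2928 and 2938 (difference -0.31, SE 0.09, adjusted p = 0.029). Efnb1, its close relative, had 1217, 1320 and 1171 against 1202, 1139 and 1131 (difference -0.35, SE 0.10, adjusted p = 0.0191). Efna5 had 1147, 1068 and 1140 against 1208, 1131 and 1179 (difference -0.34, SE 0.10, adjusted p = 0.022), and the treated groups overlapped. Sema4b, a class 4 ligand, had 1858, 1867 and 1857 against 1631, 1473 and 1700 (difference -0.33, SE 0.10, adjusted p = 0.0378). The calls of Efna5, Efnb1, Efnb2, Sema3g, Sema4b and Sema6a were each lost under 3 or more of the 18 alternative settings, most of them leaving out 1 library.

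Genes that act downstream of or beside these receptors were counted from a list of 56, of which 53 were tested. Between untreated genotypes 22 were called (41.5%), 12 higher and 10 lower in TβRII-/- PT cells, with a median log2 difference of 0.018, beside 28% of all genes called, 16.3% higher and 11.8% lower. Gipc2, a PDZ-domain relative of the neuropilin-binding adaptor Gipc1, had no read in untreated TβRII flox/flox libraries and 48.1, 61.0 and 38.3 normalized counts in TβRII-/- libraries. Ngef, an exchange factor that acts downstream of EphA receptors, had 3.16, 1.11 and 0 against 141, 136 and 134 (log2 6.45, SE 0.36). Both were separate between the lines, as were the genes that were lowest. Plxdc2, a transmembrane protein with a plexin-like domain, had 1376, 1205 and 1173 against 33.5, 29.0 and 28.7 (log2 -5.36, SE 0.12, adjusted p = 1.04e-27). Crmp1, a cytosolic mediator of the semaphorin 3A signal, had 68.4, 47.9 and 47.3 against 5.23, 2.90 and 0.96 (log2 -4.14, SE 0.42). Gipc2, Ngef and Crmp1 passed the low-count filter only through the line where each is high, so no p-value is given for them. With H2O2, 4 of the 53 were called in TβRII flox/flox PT cells (1 rising, 3 falling) and 5 in TβRII-/- PT cells (2 rising, 3 falling), shares of 7.55% and 9.43% that lie near the 8.24% and 8.33% of all genes. The interaction was called in 7 (13.2%, beside 10.2% of all genes), 4 more positive and 3 more negative. Of 23 genes of the Slit, Robo, netrin and repulsive guidance families, 14 were tested and 9 were called between untreated genotypes (64.3%, beside the same 28% of all genes), 5 higher and 4 lower. Robo3, a receptor of the Slit and netrin pathways, had 182, 158 and 197 normalized counts in untreated TβRII flox/flox libraries and 820, 871 and 885 in TβRII-/- libraries (log2 2.26, SE 0.09, adjusted p = 4.94e-20). Unc5b, a netrin receptor, had 343, 323 and 259 against 1008, 855 and 877 (log2 1.57, SE 0.09, adjusted p = 7.13e-17). Both were higher in every TβRII-/- library. Dcc, another netrin receptor, had 27.4, 23.4 and 20.4 against 3.14, 5.81 and 0.96 (log2 -2.80, SE 0.51). Ntn3, a netrin, had 10.5, 13.4 and 12.9 against 3.14, 3.87 and 4.79 (log2 -1.60, SE 0.47). Neither overlapped between the lines, and both rested on few reads. Dcc and Ntn3 passed the low-count filter only through TβRII flox/flox libraries, so no p-value is given for them.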

How the data were processed

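Poly(A) RNA of 12 libraries of PT cells was sequenced. Per the labels and the study's methods, the authors trimmed reads with fastp, aligned them with STAR to GRCm38.p6 (GENCODE M23) and counted with featureCounts, whose strand and overlap settings are not given in the sources used here. The deposited values are raw counts per transcript, so that reads shared by transcripts, close paralogs or overlapping and antisense genes may count on several of them or on none. Of 106332 transcripts, 104820 matched an annotation (GENCODE M39) by identifier; 1512 with 1.22% to 1.28% of the counts were left out. Each of 25514 genes was given the counts of its transcript with the highest total. Of the 53 members, 48 have several transcripts. The counted one can hold a small part of the reads summed over them, as 14.0% for Sema3b, 21.8% for Sema3f and 22.1% for Ephb4. Levels compared between genes are those of the counted transcripts. Counts were tested with edgeR 4.0.16 (TMM, filterByExpr, quasi-likelihood, R 4.3.3) with 4 group means in 1 fit, adjusted by Benjamini-Hochberg over 12970 genes. The fit was tested on simulated data. Lengths per kilobase are those of the counted transcript. Promoter windows, motifs and tables were handled in Python 3.11.15.

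Members and lists were chosen with earlier results of these data known. Values were given in every library for, in each family, up to 4 members called between untreated genotypes with the largest difference and the member with the highest mean count, for the 3 largest rises and falls with H2O2, and for members called in the interaction; of the 2 other lists, the 2 highest and 2 lowest. No pair of replicates differed by less than the sampling noise (chi-square per gene of 3.6 to 12.3). Alternatives were DESeq2 1.42.0, its size factors, other filters and thresholds, summed transcripts, a replicate block, only the groups compared and leaving out each library.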

Additional observations from a re-analysis of the deposited data

Results flagged for a closer look

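The response to H2O2 differed between TβRII-/- and TβRII flox/flox PT cells, by the test of the difference itself, in 16 members. The difference (log2 change in TβRII-/- less that in TβRII flox/flox PT cells) was -1.11 for Epha1, -1.035 for Efna3, -0.96 for Sema6a, -0.926 for Sema3g, -0.697 for Sema3a and -0.592 for Sema3c. It was -0.516 for Epha4, -0.509 for Epha2, -0.457 for Sema3e, -0.454 for Plxna2, -0.445 for Sema7a and -0.415 for Nrp1. For the ephrins and Sema4b it was smaller, -0.35 for Efnb1, -0.343 for Efna5, -0.328 for Sema4b and -0.309 for Efnb2.

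Sema4f, a class 4 semaphorin, was too low to be tested. It had a mean of 8 reads in untreated and 9.67 in treated TβRII-/- libraries, and at most 2 reads in any TβRII flox/flox library. Plxnb3, likewise untested and counted on a retained-intron transcript, had a mean of 4.33 reads in untreated TβRII-/- libraries and none in untreated TβRII flox/flox libraries. Both means are above the floor of 3 counts.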

How the results depend on the processing

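Between genotypes lower calls stayed more frequent than higher ones, and with H2O2 rises more frequent than falls, under every alternative run. Leaving out 1 library, with 42 or 43 members tested, gave 23 to 27 members between untreated genotypes, 28 to 31 with H2O2, 13 to 16 for H2O2 in TβRII flox/flox PT cells, 9 to 10 in TβRII-/- PT cells and 11 to 21 for the interaction. With no fold limit H2O2 called 32 members in TβRII flox/flox and 25 in TβRII-/- PT cells. Shares of all genes were not taken for this rule or for the fits with 1 library left out. With an unadjusted p under 0.01 and a fold change of at least 1.5, the interaction was called in 6 members rather than 16, and in 356 of all genes rather than 1320. The cause is the rule itself, which adds a fold limit. With the call rule kept, calls held in all other settings for 19 of 24 members between untreated genotypes, 28 of 28 with H2O2, 12 of 15 and 8 of 9 for H2O2 in the floxed and the deleted line, and 10 of 16 for the interaction. Of 964 values of named members, 913 stayed on their side of the threshold, 40 lost the call and 11 gained it, and none reversed. Deviations from the group means were no more alike in same-numbered samples (correlations of -0.102 to 0.059) than in others (-0.116 to 0.118). These correlations cannot show whether same-numbered samples were handled together. With the replicate number as a block 24, 28, 15, 9 and 17 members were called in the 5 comparisons, in the order above. Counts near the low end, as for Sema3d, Efna2, Ephb6 and Sema5b, limit the precision of those genes.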
